A study of Bos taurus with 2 samples.

Results

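Sequences of 16 or 17 nt, the shortest in a deposited table of bovine lung microRNAs (miRNAs), are described here. Members were the rows whose listed sequence was at most 17 nt long, under any name, and they numbered 155 of 2271 rows. They held 146 distinct sequences, 93 rows being 16 nt and 62 rows 17 nt long, and no row of the table was shorter. Small RNA sequencing was done on 2 libraries, 1 from collapsed lungs and 1 from normal lungs of neonatal cows, and each library was made from pooled RNA of 4 animals (500 ng per sample). The series text names cloned and normal cows as the sources of the pools. That the collapsed lungs were those of the clones is read from that text and not from the label of that sample. No strain, age beyond neonatal, treatment or sex is given in the labels used here. Because the animals were pooled, variation from cow to cow cannot be seen and no difference has a replicate check. Every interval covers counting error only, and PCR copies of a molecule, which carry no identifiers here, count as separate reads.

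A mature miRNA is cut from a hairpin precursor by the enzymes Drosha and Dicer, which gives products of a narrow length range, and it finds its target mRNAs mainly through its seed, bases 2 to 8 from the 5′ end. Sequences well under that length range are a mixed class in small RNA libraries. Trimmed miRNAs, pieces of transfer RNA (tRNA) and of ribosomal RNA (rRNA), and other breakdown products are all known to occur in it. Mature tRNAs carry the added ending CCA at the 3′ end, so that this ending is common among pieces of tRNA 3′ ends. A short read also matches names and genome positions less specifically than a longer one. None of the members marks a lung cell type, so the labelled tissue could not be checked with them.

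The 11 members with most reads are shown with the seed in capitals, because they hold most reads of the class and because the seed would set their targets if they acted as miRNAs.
hsa-miR-4454_L-3: tCCGAGTCacggcacca
oan-miR-1386_L-1: tCCTGGCTggctcgcca
hsa-miR-7641_L-3: aTCTCGGAagctaagc
sha-mir-716a-p5_1ss4TC: cGACGAGTaggagggc
bta-miR-2440_R-4: tGCAGTGAtgagaccc
bta-miR-2340_L-5R-1_1ss19TA: tCCCTGGTggtctagt
hsa-miR-4443_L+1R-2: cTTGGAGGcgtgggtt
cgr-miR-1260_L-2: cCCACCGCtgccacca
bta-miR-2285u_L-3: aAACCCGAacgaacttt
hsa-miR-3195_1ss17TC: cGCGCCGGgcccgggtc
oan-miR-1417-3p_L-1R-3_1ss11TC: tTTCACCGgctctgaga
The 11 sequences had 11 different seeds. The prefixes name the species of the database entry (bta cattle, hsa human, mmu mouse, oan platypus, sha Tasmanian devil, cgr Chinese hamster, mdo opossum), and PC marks a predicted miRNA. In the suffixes, L and R with a number are read here as bases lost or gained at the left or right end, and ss as a base substitution relative to the database entry. All sequences are as deposited, with T for U.

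The class was small and scarce in both libraries. It held 1452 of 2822876 reads in the collapsed-lung library, a share of 0.0514% (exact binomial 95% interval 0.0488 to 0.0542%), and 1458 of 4550911 reads in the normal-lung library, a share of 0.0320% (0.0304 to 0.0337%). Per 1000000 reads of the table (RPM), the summed level was 514 RPM in the collapsed-lung library and 320.4 RPM in the normal-lung library. The ratio of collapsed to normal was 1.61 (exact conditional 95% interval 1.49 to 1.73). The 4 members with most reads, hsa-miR-4454_L-3, oan-miR-1386_L-1, hsa-miR-7641_L-3 and sha-mir-716a-p5_1ss4TC, made up 63.5% of the reads of the class in the collapsed-lung library and 70.2% in the normal-lung library. Their summed ratio was 1.45 (1.33 to 1.59), and that of the other 151 rows was 1.96 (1.73 to 2.23). Among those 151 are 4 rows described further on as called higher. These 4 held 259.5 of the 530 reads in the collapsed-lung library and 119 of the 435 in the normal-lung library. The 146 rows below 10 RPM had a summed ratio of 1.42 (1.19 to 1.70), so 1.96 does not describe the scarcer rows in general. Most members were close to the limit of detection, since 97 of 155 rows had at most 1 read over both libraries together and 140 had fewer than 10 reads in each. A row without reads allows a level of up to 3 reads, which is 1.06 RPM in the collapsed-lung library and 0.659 RPM in the normal-lung library.

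**Figure D1:**
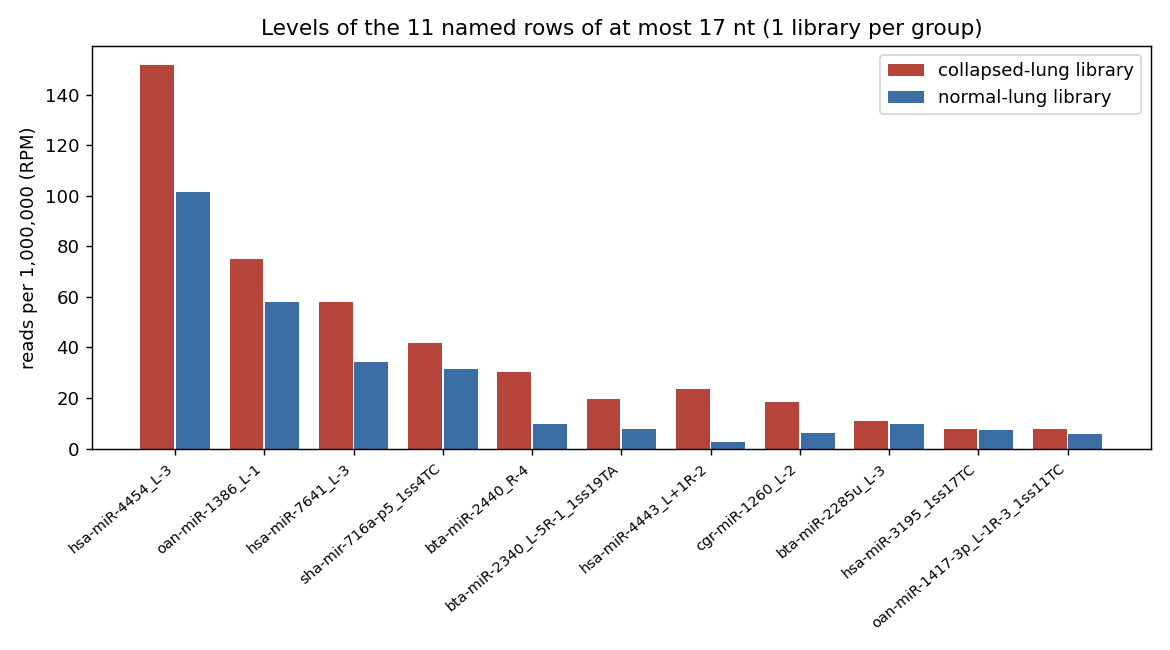
Level in RPM (y axis) of the 11 members with most reads (x axis) in the collapsed-lung library (red bars, left) and the normal-lung library (blue bars, right), 1 library per group and no error bars. hsa-miR-4454_L-3 stands highest in both, at 152 and 102 RPM, and the collapsed-lung bar is the taller one for all 11 in RPM (under other scalings not for hsa-miR-3195_1ss17TC, nor under median-of-ratios factors for bta-miR-2285u_L-3).

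Sums by sequence length place the class in the table. Rows of 16 nt summed to 230.1 RPM in the collapsed-lung library and 121 RPM in the normal-lung library, a ratio of 1.90 (1.70 to 2.13). Of these, 4 rows with a ratio above 2 (hsa-miR-4443_L+1R-2, bta-miR-2440_R-4, cgr-miR-1260_L-2 and bta-miR-2340_L-5R-1_1ss19TA), described further on as called higher, held 259.5 of 650 reads in the collapsed-lung library and 119 of 551 in the normal-lung library, and without them the 16-nt ratio was 1.46 (1.27 to 1.67). Rows of 17 nt summed to 284 RPM in the collapsed-lung library and 199 RPM in the normal-lung library, a ratio of 1.43 (1.29 to 1.57), close to that of the 16-nt rows without the 4. Just outside the limit, the 96 rows of 18 nt had a ratio of 1.18 (1.11 to 1.26), and the 153 rows of 19 nt a ratio of 1.09 (1.03 to 1.15). The 735 rows of 22 nt, the length with most reads in both libraries, had a ratio of 1.007 (1.005 to 1.009). Rows of 24 nt lay on the other side of 1, at 0.802 (0.797 to 0.806), though the median log2 ratio of their 16 measured rows was 0.06. Rows of 26 and 27 nt had few reads and ratios of 1.86 and 1.83, with intervals that held 1. These ratios are in RPM. The other scalings move every log2 ratio by -0.16 to -0.12, which puts the 22-nt ratio below 1 and brings those of 18 and 19 nt closer to 1. Each sum rests on its most abundant rows, and hsa-miR-4454_L-3 alone held 428 of the 802 reads of 17 nt in the collapsed-lung library and 462 of 907 in the normal-lung library. These are values of 2 libraries, and how RNA quality or size selection differed between them was not tested.

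**Figure D2:**
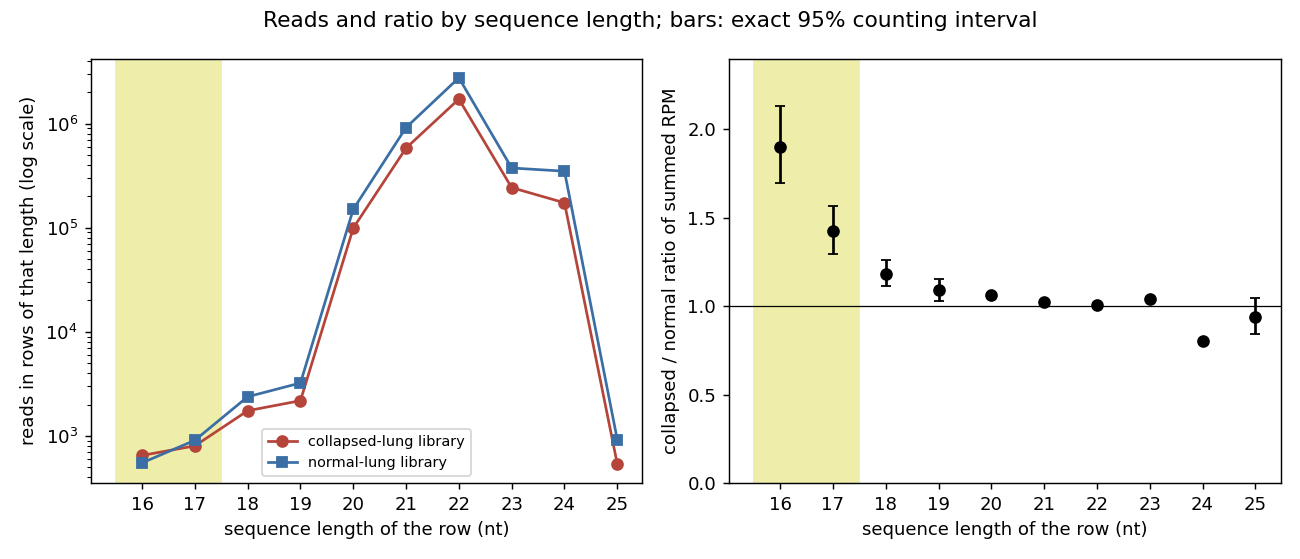
Left: reads in rows of each sequence length (log scale) in the collapsed-lung library (red circles) and the normal-lung library (blue squares). Right: collapsed over normal ratio of summed RPM by length, with exact 95% counting intervals. The shaded lengths of 16 and 17 nt stand at 1.90 (1.46 without the 4 rows called higher) and 1.43, and rows of 20 to 23 nt lie between 1.01 and 1.06. Other scalings lower all these ratios alike, and lengths above 25 nt are not drawn.

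Rows averaging 10 RPM or more across the libraries were taken as measured, and 9 of the 155 members met this. A call needed a counting interval that left out 1, with a ratio of 2 or more for higher in collapsed lungs and of 0.5 or less for lower. By this rule 4 of the 9 were called higher, where 17 of all 487 measured rows were (3.49%), and 0 were called lower, where 14 of 487 were (2.87%). At a ratio of 1.5 in place of 2, 5 of the 9 were called higher, with 12.7% of the 487 rows, and 0 lower, with 7.19% of the 487 rows. All 9 ratios were above 1, and in 8 of them the interval was too. The other scalings tried move every log2 ratio by -0.16 to -0.12, and under each of them 6 of the 9 intervals lay above 1, those of oan-miR-1386_L-1 and sha-mir-716a-p5_1ss4TC then holding 1. Under median-of-ratios factors bta-miR-2285u_L-3 stood at 1 and the class as a whole at 1.44. The median log2 ratio of the 9 was 0.77, against 0.09 over all 487 measured rows. All 4 called members were under 10 RPM in the normal-lung library and met the minimum through the collapsed-lung library, where they were high, so this count and this median describe the 9 rows and support nothing about the class. Of the 4 measured members at 10 RPM or more in the normal-lung library, 0 were called, and their median log2 ratio was 0.50. For comparison with all 9 measured members, 257 longer rows had a mean level in their range, from 10.1 to 126 RPM. Over these 257 the median was 0.10, with 13 called higher and 9 lower. They were taken by mean level alone, not by their level in the normal-lung library. The 4 members with the median of 0.50 had means from 36.6 RPM upward, so the 257 rows are not matched to those 4. With 1 library per group, the difference between short and longer rows was not tested.

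**Figure D3:**
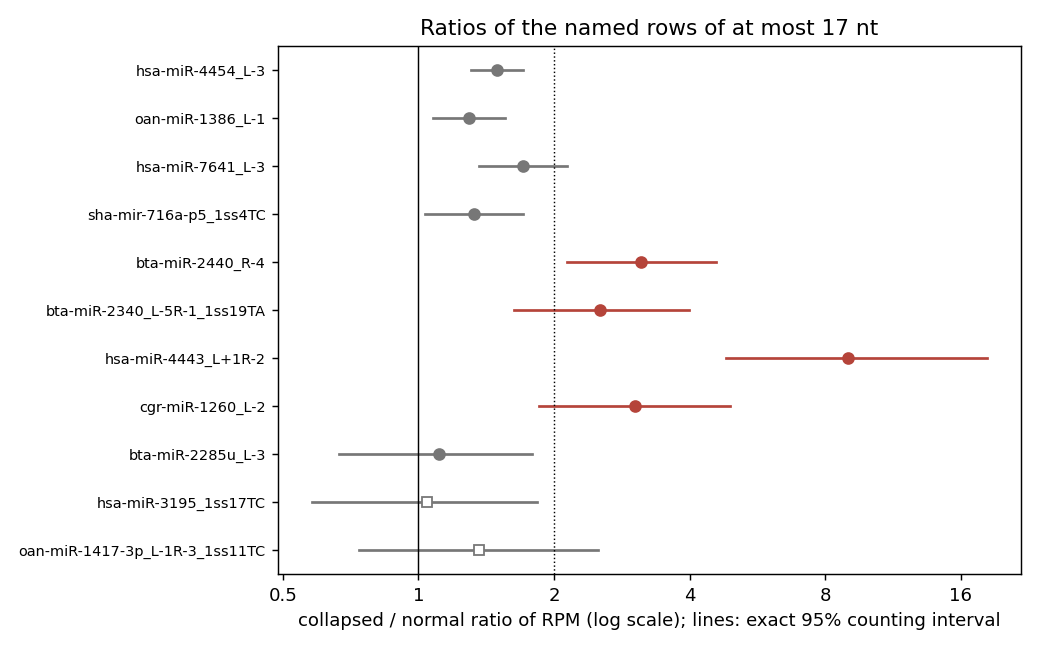
Collapsed over normal ratio of RPM (x axis, log scale) for the 11 members with most reads (y axis), with exact 95% counting intervals; red marks the 4 called higher, open squares the 2 below 10 RPM, and the solid and dotted lines stand at ratios of 1 and 2. hsa-miR-4443_L+1R-2 stands farthest to the right, at 9.0 (4.83 to 18.3).

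The 4 members called higher were all 16 nt long and each stood below 10 RPM in the normal-lung library. hsa-miR-4443_L+1R-2, named for a human miRNA, had 67 reads (23.7 RPM) in the collapsed-lung library and 12 reads (2.64 RPM) in the normal-lung library, a ratio of 9.0 (4.83 to 18.3). bta-miR-2440_R-4, named for a cattle miRNA with its last 4 bases missing, had 85 reads (30.1 RPM) in the collapsed-lung library and 44 reads (9.67 RPM) in the normal-lung library, a ratio of 3.11 (2.14 to 4.59). cgr-miR-1260_L-2 had 52.5 reads (18.6 RPM) in the collapsed-lung library and 28 reads (6.15 RPM) in the normal-lung library, a ratio of 3.02 (1.86 to 4.92). The entry miR-1260 is known in human for its match to the 3′ end of a leucine tRNA, and the sequence here ends in CCA. bta-miR-2340_L-5R-1_1ss19TA had 55 reads (19.5 RPM) in the collapsed-lung library and 35 reads (7.69 RPM) in the normal-lung library. Its ratio was 2.53 (1.63 to 3.99), so that the lower bounds for it and for cgr-miR-1260_L-2 lay below the threshold of 2. Together the 4 made up 17.9% of the reads of the class in the collapsed-lung library and 8.16% in the normal-lung library. Without them the class still had a summed ratio of 1.44 (1.33 to 1.55).

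The 5 measured members that were not called included the 4 with most reads. hsa-miR-4454_L-3 had 428 reads (152 RPM) in the collapsed-lung library and 462 reads (102 RPM) in the normal-lung library, a ratio of 1.49 (1.31 to 1.71). The human entry miR-4454 is known to match the 3′ end of histidine tRNA. oan-miR-1386_L-1, which also ends in CCA, had 212 reads (75.1 RPM) in the collapsed-lung library and 263.5 reads (57.9 RPM) in the normal-lung library, a ratio of 1.30 (1.08 to 1.56). sha-mir-716a-p5_1ss4TC had 118 reads (41.8 RPM) in the collapsed-lung library and 143 reads (31.4 RPM) in the normal-lung library, a ratio of 1.33 (1.03 to 1.71). Entries of the name miR-716 are known in mouse as pieces of large-subunit rRNA. hsa-miR-7641_L-3 had 164 reads (58.1 RPM) in the collapsed-lung library and 155 reads (34.1 RPM) in the normal-lung library. Its ratio of 1.71 (1.36 to 2.14) was the one among the 5 whose interval reached 2. bta-miR-2285u_L-3, of the large cattle miR-2285 family, had 30.5 reads (10.8 RPM) in the collapsed-lung library and 44.1 reads (9.69 RPM) in the normal-lung library. Its ratio of 1.11 (0.667 to 1.79) did not leave out 1. No tRNA or rRNA sequences were used here, so the origins given are background from the names and were not checked.

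The ending CCA set apart a part of the class that the choice by length did not use. It was found on 5 of 155 members (3.23%) and on 49 of 2116 longer rows (2.32%), by the last 3 letters of the deposited strand. In reads it weighed more, since those 5 rows held 48.0% of the reads of the class in the collapsed-lung library and 52.2% in the normal-lung library. The 5 were hsa-miR-4454_L-3, oan-miR-1386_L-1, cgr-miR-1260_L-2 and, below 10 RPM, hsa-miR-6758-3p_L-3R-1_1ss6TG and mdo-miR-7361-3p_L-5R-1_1ss17TA. Their summed ratio was 1.48 (1.33 to 1.64), and that of members with other endings was 1.75 (1.57 to 1.94), so that the difference between the libraries stood in both. Of the members called higher, 3 had other endings and 1 ended in CCA. Those 3 (hsa-miR-4443_L+1R-2, bta-miR-2440_R-4 and bta-miR-2340_L-5R-1_1ss19TA) held 67, 85 and 55 of the 754 collapsed-lung reads with other endings. They held 12, 44 and 35 of the 697 normal-lung reads. The gap between 1.48 and 1.75 is therefore not a result about the ending. Among longer measured rows with this ending, bta-miR-2478_L-2, of 18 nt, had 1010 reads (358 RPM) in the collapsed-lung library and 1156 reads (254 RPM) in the normal-lung library, a ratio of 1.41 (1.29 to 1.53). bta-miR-223, a 22-nt miRNA of myeloid cells that ends in the same letters, stood lower in the collapsed-lung library at 0.700 (0.645 to 0.760), and PC-3p-2918_138 was at 1.07 (0.897 to 1.26). The ending is only 3 letters, and a match to it is no evidence of a tRNA. The cattle row bta-miR-1260b, of 18 nt, had 12 reads in the collapsed-lung library and 5 in the normal-lung library, a ratio of 3.87 (1.27 to 14.0), beside the 3.02 of cgr-miR-1260_L-2.

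Other rows of the same names gave values to set beside the short ones. The entry miR-7641 is known in human to match 5S rRNA, and its 16-nt row ended with the 6 bases that opened a 22-nt row, shown in capitals.
hsa-miR-7641_L-3: atctcggaagCTAAGC
hsa-mir-7641-2-p5: CTAAGCagggtcgggcctggtt
hsa-mir-7641-2-p3: tcgggcctggttagtacttgga
hsa-mir-7641-1-p3: gggcctggttagtacttgga
The last 12 bases of hsa-mir-7641-2-p5 in turn opened hsa-mir-7641-2-p3, so that these rows overlap end to end. The row hsa-mir-7641-1-p3 stands whole inside hsa-mir-7641-2-p3 and is not a separate stretch. hsa-mir-7641-2-p5 had 419 reads in the collapsed-lung library and 474 in the normal-lung library, a ratio of 1.43 (1.25 to 1.63). hsa-mir-7641-2-p3 had 365 reads in the collapsed-lung library and 433 in the normal-lung library, a ratio of 1.36 (1.18 to 1.57). hsa-mir-7641-1-p3, of 20 nt, had 139 reads in the collapsed-lung library and 128 in the normal-lung library, a ratio of 1.75 (1.37 to 2.24). The 16-nt row, at 1.71, lay within the range of the longer rows of its name. The longer row of the miR-716 name, sha-mir-716a-p3_1ss22TC, of 22 nt, had 6784 reads in the collapsed-lung library and 10296 in the normal-lung library, a ratio of 1.06 (1.03 to 1.10), beside 1.33 (1.03 to 1.71) for the short one. These intervals overlap, and the difference was not tested.

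Few members matched a longer row of the table base for base. Only exact runs were sought, and a single differing base inside a short sequence can break such a run. A substitution was written into the name of 114 members. Lost bases were written into the names of 92 members, so the count of matches does not give the number of trimmed sequences. Of 146 distinct short sequences, 6 stood whole inside a longer one, 11 more shared a run of 12 to 15 bases with one, and 129 shared no run of at least 12 bases. The 6 are printed after their longer row, with the shared bases in capitals, to show which bases of the longer row they lack.
bta-let-7a-5p: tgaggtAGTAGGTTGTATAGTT
bta-mir-3596-p5: AGTAGGTTGTATAGTT
bta-miR-29b: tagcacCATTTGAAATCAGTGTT
bta-miR-29e_L-6R-1: CATTTGAAATCAGTGTT
bta-miR-2285o_R+2: AAACCCGAACGAACTTTtgggc
bta-miR-2285u_L-3: AAACCCGAACGAACTTT
hsa-miR-4454_L-1_1ss2GA: aaTCCGAGTCACGGCACCA
hsa-miR-4454_L-3: TCCGAGTCACGGCACCA
bta-mir-6536-2-p5_1ss7AG: caGGGAGGCCTGGCATGC
bta-mir-6536-2-p3_1ss5AG: GGGAGGCCTGGCATGC
mdo-miR-195: TAGCAGCACAAAAATATtggca
mdo-miR-195_R-5: TAGCAGCACAAAAATAT
The sequences found inside let-7a and miR-29b lack the first 6 bases of the longer row and with them most of its seed. Those found inside miR-2285o and miR-195 hold the 5′ end and the seed of the longer row and lack its last 5 bases. Most stand under another name than the longer row, and the match alone does not show that they came from it. bta-mir-3596-p5, found inside let-7a, had 6.5 reads in the collapsed-lung library and 7.58 in the normal-lung library, a ratio of 1.38 (0.346 to 3.97). let-7a-5p itself, a miRNA of differentiated tissue, had 123075 reads in the collapsed-lung library and 188664 in the normal-lung library over its 3 rows, a ratio of 1.05 (1.04 to 1.06). bta-miR-29e_L-6R-1, found inside miR-29b, had 0.67 reads in the collapsed-lung library and 3.33 in the normal-lung library. miR-29b, which targets collagen mRNAs, had 228 reads in the collapsed-lung library and 706 in the normal-lung library over 2 rows, a ratio of 0.521 (0.446 to 0.605). At these depths the ratios of the short and the full-length rows could not be told apart. hsa-miR-4454_L-3 went the other way in level, since the 17-nt row outnumbered both 19-nt rows that hold it. hsa-miR-4454_L-1_1ss2GA had 19 reads in the collapsed-lung library and 26 in the normal-lung library, and hsa-miR-4454_L-1_1ss2GT had 15 reads in the collapsed-lung library and 11 in the normal-lung library.

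**Figure D4:**
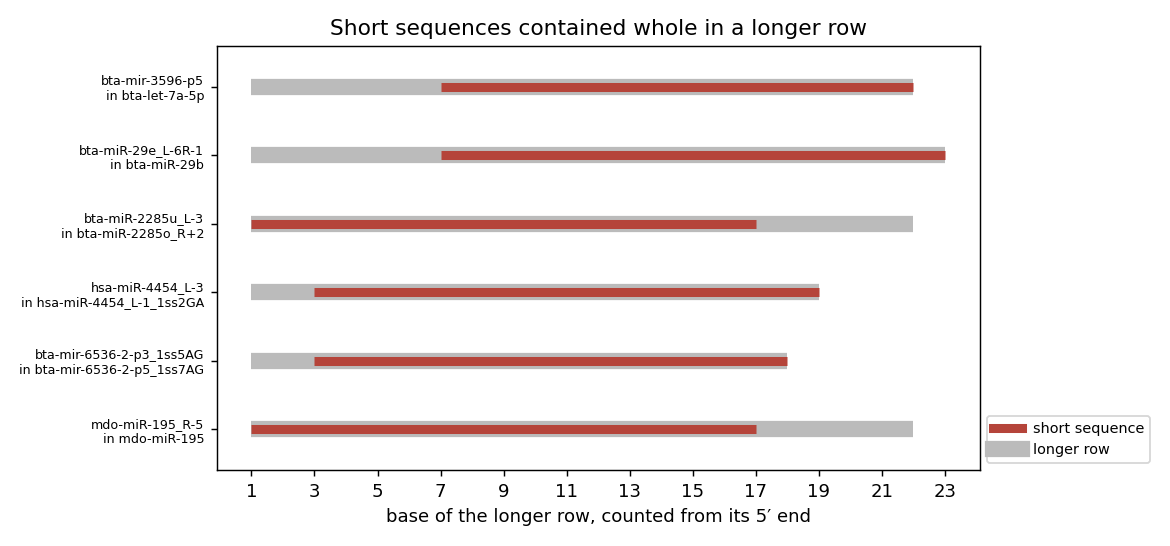
Position of the 6 short sequences (red) inside the longer row that contains each (grey), by base from the 5′ end of the longer row, for the longer row with most reads where several contain it. 4 of the 6 reach the 3′ end of the longer row and 2, bta-miR-2285u_L-3 and mdo-miR-195_R-5, start at its 5′ end.

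Under other names, 5 members with few reads shared a long run with an abundant miRNA of the table. They are shown with the run shared with the abundant row in capitals. The names of oan-miR-30f_R-6_1ss15CT and mmu-miR-21c_R-4 show that likeness by their family number, and those of the others hide it.
bta-miR-30a-5p: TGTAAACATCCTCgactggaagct
oan-miR-30f_R-6_1ss15CT: TGTAAACATCCTCctc
bta-miR-21-5p_R-2: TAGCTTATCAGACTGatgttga
mmu-miR-21c_R-4: TAGCTTATCAGACTGgt
bta-miR-125a_R-1: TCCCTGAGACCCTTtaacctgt
mmu-miR-6367_R-6_1ss14GT: TCCCTGAGACCCTTgt
bta-miR-26b: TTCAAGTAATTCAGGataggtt
hsa-miR-1297_1ss16TG: TTCAAGTAATTCAGGgg
bta-miR-221: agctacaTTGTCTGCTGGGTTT
bta-miR-2481_L-4: TTGTCTGCTGGGTTTt
The first 4 start at the 5′ end of the abundant row and keep its seed, and the miR-221 match starts at base 8. oan-miR-30f_R-6_1ss15CT had 3 reads in the collapsed-lung library and 0 in the normal-lung library. miR-30a-5p itself had 91570.5 reads in the collapsed-lung library and 193302 in the normal-lung library. mmu-miR-21c_R-4 had 1 read in the collapsed-lung library and 2 in the normal-lung library. The matching row of miR-21-5p, which is raised in many forms of tissue injury, had 105028 reads in the collapsed-lung library and 89536 in the normal-lung library. The other 3 had no more than 2 reads in either library, and no ratio is given. In all, 7 of 146 short sequences had the seed of a measured longer row.

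Substitutions in the names and the letters of the class differed from those of the longer rows. Names of other species stood on 97 of the 155 members, of them 40 human, 26 mouse and 13 platypus, and 43 were cattle names and 15 predicted. The species of the names were not counted over the longer rows, so these counts set nothing apart. The cattle rows gave 207 reads in the collapsed-lung library and 181 in the normal-lung library, a ratio of 1.85 (1.503 to 2.26). Of these reads, bta-miR-2440_R-4 held 85 and 44 and bta-miR-2340_L-5R-1_1ss19TA 55 and 35, both called higher. The ratio of 1.85 rests largely on them and does not describe cattle-named rows in general. The rows of other species, which hold the other 2 called rows, gave 1215 reads in the collapsed-lung library and 1268 in the normal-lung library. Their ratio was 1.55 (1.43 to 1.67). A substitution was written into the name of 114 members (73.5%) and of 255 longer rows (12.1%). Of the 36 distinct cattle names, 35 matched a miRNA gene of RefSeq (assembly ARS-UCD2.0), MIR2440, MIR2340 and MIR2285U among them. No coordinates are given because the submitters' build, bosTau8, is another one. Over distinct sequences the median share of G and C was 56.25% (quartiles 43.75 and 68.75%) in the short and 47.4% (38.1 and 56.5%) in the longer ones. At least 75% G and C was found in 25 of 146 short sequences (17.1%) and in 70 of 1939 longer ones (3.61%). A first base T, the DNA letter for the U with which many miRNAs begin, was found in 26.0% of short and 34.7% of longer sequences.

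Below 10 RPM stood 146 members, with 240 reads in the collapsed-lung library and 272 in the normal-lung library. Their summed ratio was 1.42 (1.19 to 1.70). hsa-miR-3195_1ss17TC had 22 reads in the collapsed-lung library and 34 in the normal-lung library, a ratio of 1.04 (0.581 to 1.84) that lay below 1, at 0.937 to 0.962, under the other scalings. oan-miR-1417-3p_L-1R-3_1ss11TC had 22 reads in the collapsed-lung library and 26 in the normal-lung library, a ratio of 1.36 (0.737 to 2.50). Reads were found in the collapsed-lung library alone for 57 members and in the normal-lung library alone for 55. Over longer rows the same counts were 270 and 466, and the normal-lung library was the deeper one. The next members were chosen after their values were seen. PC-5p-61162_7, with the sequence tGGGAATGatgatttct (seed in capitals), had 9 reads in the collapsed-lung library and 0 in the normal-lung library, at least 4.84-fold higher against the limit of 3 reads, a bound that takes the 9 reads as exact; the exact 95% interval of the ratio began at 3.18. hsa-miR-4508_R-1, gCGGGGCTgggcgcgc, had 11 reads in the collapsed-lung library and 3 in the normal-lung library, a ratio of 5.91 (1.56 to 33.0). On the other side, hsa-miR-1261_L-1R-2_1ss12TA had 11 reads in the collapsed-lung library and 25 in the normal-lung library, a ratio of 0.709 (0.315 to 1.49) whose interval held 1. oan-mir-153-1-p5, tCTCTCTCtctctctc, a plain repeat of TC, had 1 read in the collapsed-lung library and 0 in the normal-lung library.

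The authors' deposited table placed 5 members in its section of different rows, all 5 up in collapsed lungs, out of 35 up and 43 down in that section. The section held 5 of 155 members and 78 of all 2271 rows, which are close shares, so members were not listed there unusually often. In the authors' deposited table their log2 fold changes were 3.04 for hsa-miR-4443_L+1R-2, 2.44 for hsa-miR-4508_R-1, 1.51 for bta-miR-2440_R-4, 1.47 for cgr-miR-1260_L-2 and 1.21 for bta-miR-2340_L-5R-1_1ss19TA. The 4 called higher here were among them, and hsa-miR-4508_R-1 was below 10 RPM. At the limit of length itself, the 3 measured rows of 17 nt had log2 ratios of 0.58, 0.38 and 0.16, and the 3 measured rows of 18 nt had 0.49 (bta-miR-2478_L-2), -0.27 (bta-mir-2887-2-p5) and 0.45 (oan-miR-23b-3p_R-4_1ss17TA), none of them called.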

How the data were processed

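Small RNA libraries of 1 pool of collapsed lungs and 1 pool of normal lungs were compared in a single table. Trizol extraction and a TruSeq small RNA kit are named per the labels' protocols, and build bosTau8 per the submitters' processing notes (aligner and trimming: not given in the sources used here). The deposited raw read counts are partly fractional. The authors also deposited normalized reads, a signal equal to the raw reads divided by 0.823 (collapsed) and 1.21 (normal). Per the file headers, a fold change, that is a ratio, was deposited. Per the file headers, its log2 value was deposited too. The p-values deposited by the authors set 1 library against another and were not used.

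RPM were taken over all reads of the table (python 3.11.15, scipy 1.17.1). Intervals were exact, at 95%, on reads rounded to whole numbers. Where a library had no reads, 0.5 read was added to both. Conditions were not tested, having 1 library each. The interval and the calls were tested on simulated counts that held counting error only, with changes well past the threshold. This does not test them for variation between cows or pools or for PCR copies. Named members were those averaging at least 10 RPM, the 10 sequences with most reads in either library, and any with at least 10 reads in 1 library and none in the other (no row met this), each with its containing longer row and other arm. Members, thresholds and alternatives were chosen with earlier results of these data known. Alternatives were other scalings, a pseudocount, minima, length limits and name filters. 2 emptied lines were not analysed here.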

Additional observations from a re-analysis of the deposited data

How the results depend on the processing

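No paired analysis was possible because each group holds 1 library, and for the same reason none could be left out. The 4 higher and 0 lower calls were the same in number under the 3 other scalings and a pseudocount of 5 reads. They were also the same under a minimum of 5 RPM, either other length limit and each sequence counted once. These last settings could not have lost a call, because all 4 called rows are 16 nt long, average at least 10 RPM and have a sequence of their own. Their unchanged 4 is therefore no check. There were 6 of 155 higher with no minimum, 5 of 9 at a ratio of 1.5, and 2 with bovine names only, which leaves 3 measured rows. The share over all rows was not taken with no minimum or with bovine names only, so those 2 counts set nothing apart. At a ratio of 1.5 it was 12.7% of 487 rows. The other scalings moved log2 ratios by -0.16 (median-of-ratios), -0.12 (trimmed mean) and -0.13 (the authors' normalized values). Over library totals rescaled by median-of-ratios factors, the reads of the class came to 0.0487% (collapsed) and 0.0338% (normal), a ratio of 1.44. The share of a library's own reads does not change with scaling. The authors' normalized values gave a ratio of 1.47. A limit of 16 nt gave 0.0230% and 0.0121%, a ratio of 1.90 and a median log2 ratio of 1.47, and a limit of 18 nt 0.113%, 0.0843% and 1.34. Bovine names gave 0.00734%, 0.00398%, 1.85 and a median of 1.34. These limits and filters change which rows are summed. All 44 ratios of the 11 named members under other scalings and the pseudocount stayed within their counting intervals, and no call changed. With no minimum the median over 155 rows was 0.50, which is no check either. Of these rows, 97 had at most 1 read over both libraries together. Where a library had no reads, 0.5 read was added to both, and the collapsed-lung library had fewer reads in all. The added read alone therefore raises the ratio of such rows. Some rows with a fraction of a read in the normal-lung library alone even stood above a ratio of 1. Depth limits the 140 members with fewer than 10 reads in each library.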
